A study of Homo sapiens with 12 samples.

Results

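The 10 genes described here encode the oxidant-responsive transcription factor NRF2 (NFE2L2), proteins of the glutathione and thioredoxin systems (GCLC, GCLM, GSR, GPX2, TXN, TXNRD1, SRXN1 and PRDX1) and haem oxygenase 1 (HMOX1). They are 10 of 14057 genes tested, and all 10 passed the filter on dim probe sets. A gene was measured by probe sets, groups of short probes on an array, that the platform annotation assigns to it alone, and its main probe set was the one of highest mean over 12 arrays. The arrays were Affymetrix U133 Plus 2.0, and the values are MAS5 signals, a linear brightness scale on which the level of a gene cannot be set against that of another gene. A549, a lung adenocarcinoma line grown in RPMI1640, and SW780, a bladder carcinoma line grown in Leibovitz L-15, were each transfected with siKDM3A, which targets the histone demethylase KDM3A, or with a control siRNA, siEGFP or siFFluc. All siRNAs were given at 100 nM by lipofection for 24 h, and each of the 6 groups holds 2 arrays. Growth with or without CO2 is given for the lines jointly, so line, medium and CO2 cannot be told apart. The labels name siKDM3A without a sequence or a second duplex, give no untransfected sample, and do not say whether the arrays of a group came from separate cultures. Spread among the arrays of a group, on which every p-value here rests, may thus be technical.

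NRF2 is held at a low level by KEAP1, which hands it to a ubiquitin ligase. When oxidants or electrophiles modify KEAP1, NRF2 accumulates, pairs with small MAF proteins and binds antioxidant response elements near genes that make glutathione, recycle thioredoxin and handle haem. GCLC and GCLM form the enzyme that starts glutathione synthesis, glutathione reductase (GSR) returns oxidized glutathione to its reduced form, and GPX2 spends it on peroxides. Thioredoxin (TXN) is recharged by thioredoxin reductase (TXNRD1) and in turn serves peroxiredoxin 1 (PRDX1), which sulfiredoxin (SRXN1) repairs when it is overoxidized. Haem oxygenase 1 (HMOX1) breaks down haem. A549 is known to carry a defective KEAP1, so that NRF2 is constantly active in that line.

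The promoters of the genes that the results turn on are shown because several hold the core letters of the antioxidant response element, TGACNNNGC, or GCNNNGTCA on the other strand. The search ran on both strands of the RefSeq promoter windows of GRCh38.p14, from 250 bases before to 50 bases after a transcription start, in which matches may overlap other motifs. Of 9 windows found for 7 of the genes, 4 windows of 3 genes held the letters, against 13.3% of all 35116 windows of that length. GSR, PRDX1 and HMOX1 had no window and were not searched. The stretches printed below run 5' to 3' on the strand of the gene, from 250 bases before the start to the first base of the transcript, with matches in capitals. They lie at chr20:653200-653450 on the minus strand (SRXN1), chr12:104215529-104215779 and chr12:104286782-104287032 on the plus strand (the starts of TXNRD1), chr14:64942745-64942995 on the minus strand (GPX2) and chr1:93909430-93909680 on the minus strand (GCLM).
SRXN1: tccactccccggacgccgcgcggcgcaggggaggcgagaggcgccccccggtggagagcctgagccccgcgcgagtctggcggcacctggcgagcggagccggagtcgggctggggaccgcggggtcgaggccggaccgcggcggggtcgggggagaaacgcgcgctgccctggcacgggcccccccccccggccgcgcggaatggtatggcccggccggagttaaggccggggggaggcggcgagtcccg
TXNRD1 upstream start: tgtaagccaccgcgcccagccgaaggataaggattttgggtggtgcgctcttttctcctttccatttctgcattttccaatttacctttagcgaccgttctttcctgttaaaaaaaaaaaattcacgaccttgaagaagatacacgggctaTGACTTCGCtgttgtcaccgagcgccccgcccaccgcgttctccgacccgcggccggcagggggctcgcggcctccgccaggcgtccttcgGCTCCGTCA
TXNRD1 downstream start: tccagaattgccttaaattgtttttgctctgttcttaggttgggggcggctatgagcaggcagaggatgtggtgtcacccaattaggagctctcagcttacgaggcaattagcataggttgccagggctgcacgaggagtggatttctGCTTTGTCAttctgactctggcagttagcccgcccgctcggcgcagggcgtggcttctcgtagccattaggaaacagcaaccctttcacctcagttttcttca
GPX2: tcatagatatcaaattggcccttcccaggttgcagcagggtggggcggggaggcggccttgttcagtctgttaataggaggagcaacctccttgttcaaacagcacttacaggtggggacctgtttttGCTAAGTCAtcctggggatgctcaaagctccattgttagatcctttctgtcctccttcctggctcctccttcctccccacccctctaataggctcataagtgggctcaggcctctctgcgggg
GCLM: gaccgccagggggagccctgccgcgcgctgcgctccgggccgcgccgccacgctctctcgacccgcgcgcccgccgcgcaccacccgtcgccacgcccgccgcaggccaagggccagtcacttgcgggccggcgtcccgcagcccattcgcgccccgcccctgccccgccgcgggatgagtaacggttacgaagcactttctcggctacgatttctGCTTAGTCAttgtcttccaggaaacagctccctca
In TXNRD1 the matches began 99 and 8 bases before the upstream start and 102 bases before the downstream start. The match began 122 bases before the start in GPX2 and 34 bases before it in GCLM. No match lay in the windows of SRXN1, NFE2L2, GCLC or TXN, which says only that these letters are not in those windows.

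KDM3A itself, the check of the labels, was read at 1300 and 1307 under siEGFP, 1519 and 1437 under siFFluc and 692 and 712 under siKDM3A in A549. In SW780 it was at 410 and 373, 359 and 433, and 197 and 223. The siKDM3A arrays of both lines lay below all their controls, at 50.5% of the control mean in A549 and 53.3% in SW780. Replicate arrays correlated at r of 0.970 to 0.979 over all probe sets, which are not independent replicates, and median signal was 50.3 to 59.1. In A549 it was 53.1 and 51.9 on the siKDM3A arrays, below the 57.4 to 59.1 of the controls. The 99th percentile there was 14542 and 14645, above the 13490 to 13924 of the controls. In SW780 the median was 58.1 and 54.3 under siKDM3A, above the 50.3 to 54.2 of the controls. The ratio of beta-actin 3' to 5' control probe sets was 1.16 and 1.19 on the siKDM3A arrays of A549 against 1.20 to 1.29 on its controls, and 1.51 and 1.61 in SW780 against 1.39 to 1.44. The beta-actin ratio thus moved with siKDM3A in opposite directions in the lines. The same ratio for GAPDH was 0.893 and 0.896 under siKDM3A in A549 against 0.914 to 0.932. In SW780 it was 0.978 and 0.995, within the 0.960 to 0.999 of the controls. The part of these ratios in the results on siKDM3A was not tested. Of 7 urothelial markers, 6 were higher on every SW780 array than on any A549 array, among them GATA3 (10803 to 16049 against 303 to 422), and UPK3A was below the filter. Of 5 lung markers, 0 were higher on every A549 array. SFTPB (92.1 to 210.8 in A549, 116.7 to 165.1 in SW780), SFTPC (17.4 to 67.8, 36.5 to 147.7) and NAPSA (45.9 to 120.8, 9.2 to 65.7) overlapped between the lines. The lung markers NKX2-1 and SCGB1A1 were below the filter. The leukocyte markers PTPRC and CD14 and the fibroblast marker PDGFRB were below it too, while the other fibroblast marker, COL1A1, was at 453 to 726 in A549 and 94.6 to 173 in SW780.

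**Figure D1:**
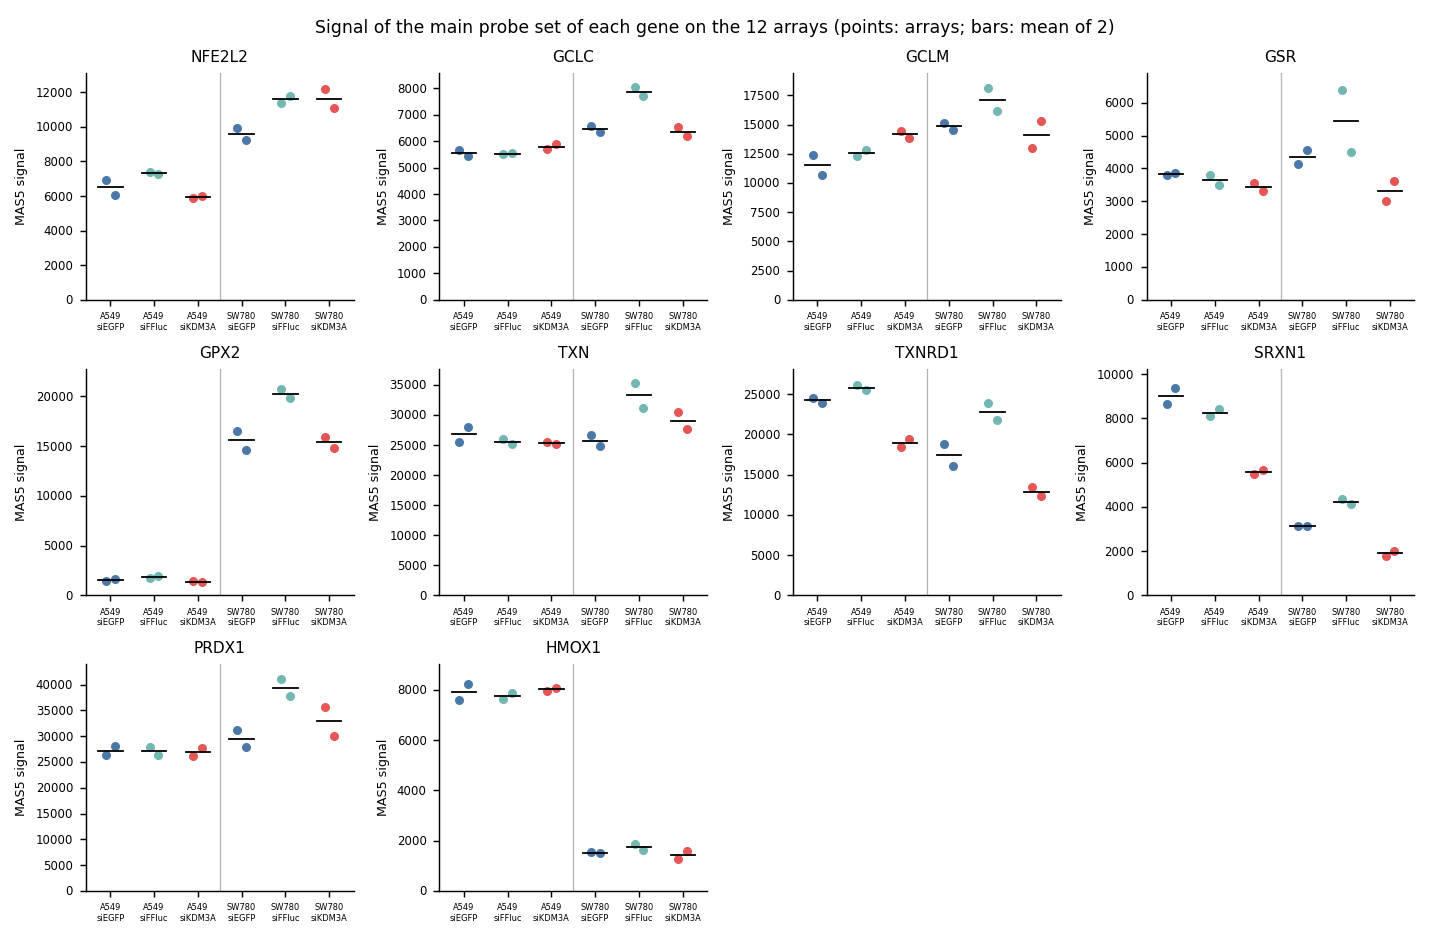
MAS5 signal (linear, from 0) of the main probe set of each of the 10 genes by line and siRNA, with a point for each array and a bar at the mean of 2. Both siKDM3A arrays of SRXN1 and TXNRD1 lie below all 4 control arrays in each line, and in SW780 both siFFluc arrays lie above both siEGFP arrays for 9 of the 10 genes.

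The first comparison asked how these genes moved when KDM3A was lowered. SRXN1 and TXNRD1, which repair and recharge the thioredoxin arm, fell in both lines. GPX2 fell in A549 and GSR in SW780, each in a call that several alternatives ended, and no gene of the 10 rose in either line with all 12 arrays in the fit and the signals as deposited. In each line 3 of the 10 genes fell and 0 rose. Of all genes tested 6.37% fell and 5.33% rose in A549, and 6.18% fell and 5.73% rose in SW780. Being lower in both lines was called for 2.29% of all genes and for 2 of these 10. The median log2 change of the 10 was -0.09 in A549 and -0.19 in SW780, beside -0.02 and 0.03 over all genes. All changes are differences of log2(signal + 16) between siKDM3A and the average of both control groups, given ± SE, with limma's adjusted p over all genes tested. In cultures measured in bulk, fewer cells with a transcript and less of it per cell cannot be told apart.

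SRXN1, the repair enzyme of peroxiredoxins, read 8664 and 9372 under siEGFP, 8085 and 8399 under siFFluc and 5501 and 5681 under siKDM3A in A549. In SW780 the same probe set read 3111 and 3142, 4336 and 4138, and 1794 and 1993. The siKDM3A arrays were the lowest of their line in both, and the 6 groups followed each other without overlap, from siEGFP in A549 down to siKDM3A in SW780, though the control groups of A549 did not pass the test against each other. SRXN1 fell by 0.62 ± 0.06 in A549 (limma adjusted p = 5.4e-05) and by 0.94 ± 0.06 in SW780 (limma adjusted p = 2.38e-06), to 64.8% and 51.4% of the control mean. Against siEGFP alone the change was -0.69 in A549 and -0.72 in SW780, and against siFFluc alone it was -0.56 and -1.16. The lines thus differed little when siEGFP was the control, and the difference between them (-0.32 ± 0.09, limma adjusted p = 0.0785) was called with siFFluc as the only control (-0.60, limma adjusted p = 0.014).

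TXNRD1, the NADPH-dependent reductase that recharges thioredoxin, read 24548 and 23911 under siEGFP, 26121 and 25460 under siFFluc and 18378 and 19433 under siKDM3A in A549. In SW780 it read 18842 and 16053, 23872 and 21782, and 13452 and 12342. Here too both siKDM3A arrays lay below all controls of the line, while the A549 siKDM3A arrays overlapped the range of the SW780 controls. TXNRD1 fell by 0.40 ± 0.07 in A549 (limma adjusted p = 0.00328) and by 0.63 ± 0.07 in SW780 (limma adjusted p = 1.97e-04), to 18906 ± 745.5 (SD, n = 2) from 25010 ± 976.1 (SD, n = 4) and to 12897 ± 785.1 from 20137 ± 3416. The A549 call ended without A549 siKDM3A replicate 1 (-0.36, limma adjusted p = 0.0688) and when arrays were scaled to equal medians (-0.25, limma adjusted p = 0.0769). That scaling moved the median of all genes in A549 from -0.02 to 0.12, and TXNRD1 stayed below it.

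No change was called for the carrier and the peroxidase of this arm. TXN in A549 was between 25194 and 28072 on the control arrays and at 25475 and 25109 under siKDM3A. PRDX1, which reduces hydrogen peroxide with electrons from thioredoxin, was between 26376 and 28040 on those controls and at 26193 and 27686 under siKDM3A. The siKDM3A arrays of both genes overlapped the controls in SW780 as well, at 30516 and 27588 against 24762 to 35359 for TXN and at 35696 and 30072 against 27905 to 41102 for PRDX1. Their changes were -0.05 ± 0.07 and -0.01 ± 0.08 in A549 and -0.01 ± 0.07 and -0.06 ± 0.08 in SW780, with limma adjusted p-values of 0.712 to 0.952. Whether these changes differ from those of SRXN1 and TXNRD1 was not tested.

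On the glutathione side, GSR read 3790 and 3873 under siEGFP, 3800 and 3490 under siFFluc and 3564 and 3299 under siKDM3A in A549. In SW780 it read 4127 and 4551, 6398 and 4513, and 3000 and 3615. One siFFluc array of SW780 stood well above the other 3 controls, and the siKDM3A arrays of SW780 lay below all 4. GSR fell by 0.55 ± 0.12 in SW780 (limma adjusted p = 0.00932), to 67.5% of control, and its change in A549 was -0.12 ± 0.12 (limma adjusted p = 0.578). The SW780 call ended without SW780 siKDM3A replicate 1 (-0.41, limma adjusted p = 0.137), against siEGFP alone (-0.39, limma adjusted p = 0.109) and with an untrended prior variance (limma adjusted p = 0.065).

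GPX2, a peroxidase of epithelial cells that uses glutathione, read 1482 and 1663 under siEGFP, 1703 and 1894 under siFFluc and 1395 and 1310 under siKDM3A in A549. The siKDM3A arrays were the lowest of the line, and GPX2 fell by 0.31 ± 0.08 (limma adjusted p = 0.0192), to 80.3% of control. This call ended against siEGFP alone (-0.21, limma adjusted p = 0.169), under median scaling (-0.16, limma adjusted p = 0.242), with an untrended prior variance (limma adjusted p = 0.0886) and with the mean of its probe sets (limma adjusted p = 0.0519). It also ended without A549 siEGFP replicate 2 (limma adjusted p = 0.0584), A549 siFFluc replicate 2 (0.0642), A549 siKDM3A replicate 1 (0.0811) or A549 siKDM3A replicate 2 (0.205). In SW780 GPX2 was at 15954 and 14774 under siKDM3A, within the 14603 to 20716 of the controls (-0.21 ± 0.08, limma adjusted p = 0.0967), and it was called with siFFluc as the only control (-0.40, limma adjusted p = 0.00887).

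GCLC, the catalytic subunit of glutamate-cysteine ligase, was at 5700 and 5891 under siKDM3A in A549 against 5430 to 5659 on the controls, and at 6542 and 6179 in SW780 against 6348 to 8031. GCLM, its modifier subunit, was at 14446 and 13854 in A549 against 10664 to 12829, and at 12985 and 15293 in SW780 against 14571 to 18094. In A549 the siKDM3A arrays of both subunits lay above all 4 controls, and in SW780 they overlapped them. Neither passed the test with all arrays: the change in A549 was 0.07 ± 0.06 for GCLC (limma adjusted p = 0.512) and 0.23 ± 0.08 for GCLM (limma adjusted p = 0.0847). In SW780 it was -0.16 ± 0.06 (limma adjusted p = 0.0738) and -0.18 ± 0.08 (limma adjusted p = 0.188). GCLM was called higher in A549 without A549 siEGFP replicate 1 (0.29, limma adjusted p = 0.0484) and in a fit of the A549 arrays alone (0.23, limma adjusted p = 0.0307). GCLC was called lower in SW780 without SW780 siFFluc replicate 2 (-0.18, limma adjusted p = 0.0337) and with siFFluc as the only control (-0.31, limma adjusted p = 0.00684). It was also called lower there after quantile normalization (-0.16, limma adjusted p = 0.0315) and under median scaling (-0.27, limma adjusted p = 0.0298). After quantile normalization 4 of the 10 genes were called lower in SW780, beside 868 of 14053 genes. Under median scaling both subunits were called higher in A549, which turned the count of 0 higher and 3 lower into 2 higher and 1 lower. Of all 14054 genes under that scaling, 2217 were higher and 415 lower in A549.

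The transcript of NRF2 itself gave values of opposite sign in the lines on its main probe set. NFE2L2 read 6933 and 6080 under siEGFP, 7384 and 7270 under siFFluc and 5907 and 5993 under siKDM3A in A549. In SW780 it read 9962 and 9225, 11408 and 11816, and 12168 and 11071. The A549 siKDM3A arrays were the lowest of that line, and in SW780 the siKDM3A arrays lay above both siEGFP arrays, one above and one below both siFFluc arrays. The change was -0.21 ± 0.07 in A549 (limma adjusted p = 0.0581) and 0.14 ± 0.07 in SW780 (limma adjusted p = 0.218), neither called. The difference between lines was 0.35 ± 0.09 (limma adjusted p = 0.0719). NFE2L2 was called lower in A549 with siFFluc as the only control (-0.30, limma adjusted p = 0.0279) and after quantile normalization (-0.30, limma adjusted p = 0.00445). It was also called without A549 siEGFP replicate 2 (-0.26, limma adjusted p = 0.0321), SW780 siFFluc replicate 1 (limma adjusted p = 0.0405) or SW780 siFFluc replicate 2 (limma adjusted p = 0.0407), with a filter at the 60th percentile (0.0459) and in a fit of the A549 arrays alone (0.0320). With the mean of its probe sets the A549 value was 0.03 (limma adjusted p = 0.948). The other kept probe set of NFE2L2, 1567013_at, had the reverse signs, at 0.267 ± 0.275 in A549 and -0.085 ± 0.275 in SW780. Neither was called (limma adjusted p = 0.639 and 0.901 among single probe sets), nor was its difference between lines (-0.352 ± 0.389, limma adjusted p = 0.705). The signs for NFE2L2 thus depend on the probe set.

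HMOX1, the haem-degrading enzyme, was at 7961 and 8085 under siKDM3A in A549, within the 7582 to 8238 of its controls. In SW780 it was at 1266 and 1575 against 1499 to 1878. The arrays overlapped in both lines, and the changes of 0.04 ± 0.09 (limma adjusted p = 0.858) and -0.20 ± 0.09 (limma adjusted p = 0.156) were not called. Without SW780 siKDM3A replicate 2 the SW780 value was called (-0.36, limma adjusted p = 0.0424).

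**Figure D2:**
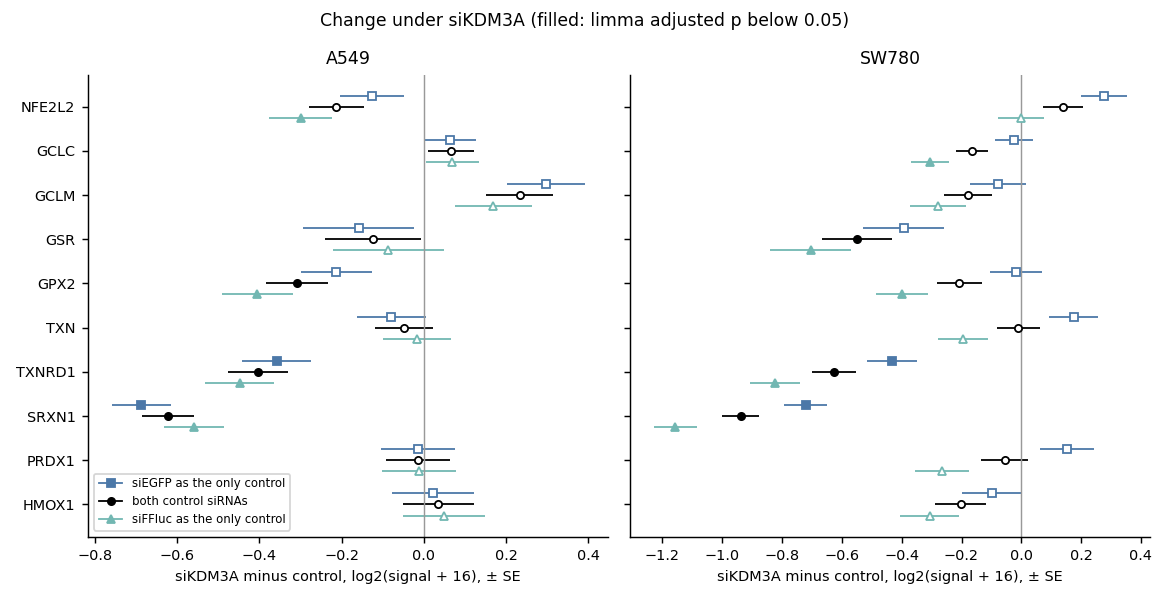
Change of each gene under siKDM3A in A549 and SW780, as the difference of log2(signal + 16) ± SE, against both control siRNAs, siEGFP alone or siFFluc alone; filled symbols have a limma adjusted p below 0.05. SRXN1 and TXNRD1 are filled against every control in both lines, and the SW780 values against siFFluc alone lie to the left of those against siEGFP alone for all 10 genes.

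Across all 10 genes, both siKDM3A arrays lay below all 4 controls for 4 in A549 (SRXN1, TXNRD1, GPX2 and NFE2L2) and above them for 2 (GCLC and GCLM). The shares over all genes tested were 19.9% below and 17.0% above. In SW780 they lay below for 3 (SRXN1, TXNRD1 and GSR) and above for 0, where 13.3% and 15.4% of all genes did. The test of a different response between lines called 0 of the 10, beside 2.79% of all genes. An unadjusted limma p under 0.05 was reached by 6 of the 10, and the share of all genes at that threshold was not counted. The number called rose from 0 to 6 under median scaling, where 116 of 14054 genes were called higher and 1825 lower. That scaling moved the median difference between lines over all genes from 0.04 to -0.21. With siFFluc as the only control it was 2 (GCLC and SRXN1), where 228 of 14057 genes were called higher and 141 lower. After quantile normalization it was 1, NFE2L2, where 287 of 14053 genes were called higher and 158 lower.

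The next comparison set the control siRNAs against each other, which shows how far these genes move with the choice of control. In SW780, 6 of the 10 were lower under siEGFP than under siFFluc and none was higher, where 3.07% of all genes tested were lower and 2.65% higher. They were SRXN1 (-0.44 ± 0.07, limma adjusted p = 0.0051), PRDX1 (-0.42 ± 0.09), TXNRD1 (-0.39 ± 0.08), GPX2 (-0.38 ± 0.09), TXN (-0.37 ± 0.08) and GCLC (-0.28 ± 0.06), with limma adjusted p-values of 0.0195 to 0.025 for the last 5. TXN and PRDX1, for which no change under siKDM3A was called, were thus among the genes that differed between the controls. All 10 genes had a value below 0, with a median of -0.34 beside 0.00 over all genes. Both siEGFP arrays lay below both siFFluc arrays for 9 of the 10, all but GSR, against 23.6% of all genes.

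The array level moved with this difference. Mean signal was 843 and 810 on the SW780 siEGFP arrays and 917 and 882 on the siFFluc arrays, while in A549 all arrays lay between 799 and 810. After quantile normalization, which gives every array the same distribution, 1 of the 6 calls was left, SRXN1 (-0.42), and TXN and PRDX1 were at -0.02 and -0.03. Under median scaling SRXN1 and PRDX1 were called, and with an untrended prior variance none was, with SRXN1 at an adjusted p of 0.052 in limma. Only SRXN1 of the 6 was called without SW780 siEGFP replicate 2, or without SW780 siFFluc replicate 1. GCLC also lost its call without SW780 siEGFP replicate 1 (limma adjusted p = 0.0662), and GSR was called without SW780 siFFluc replicate 2 (-0.56, limma adjusted p = 0.00729). NFE2L2 was called lower without A549 siEGFP replicate 1 or 2 (-0.28, limma adjusted p = 0.0478 and 0.0477).

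In A549 the same comparison called 0 of the 10 genes with limma, beside 2.92% of all genes. At an unadjusted limma p under 0.05 there were 2 of the 10, and the share of all genes at that threshold was not counted. SRXN1 was at 0.13 ± 0.07 there (limma adjusted p = 0.531), with both siEGFP arrays above both siFFluc arrays, the reverse of SW780. The difference between lines for SRXN1, -0.56 ± 0.10, had a limma adjusted p of 0.0958. It was called without SW780 siFFluc replicate 2 (-0.60, limma adjusted p = 0.0135). No gene of the 10 passed the test of a different control contrast in limma, where 0.0213% of all genes were called. At an unadjusted limma p under 0.05, for which the share of all genes was not counted, there were 5 of the 10. Without SW780 siFFluc replicate 2, GSR (-0.63, limma adjusted p = 0.0356) and TXN (-0.52, limma adjusted p = 0.0351) passed with SRXN1.

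**Figure D3:**
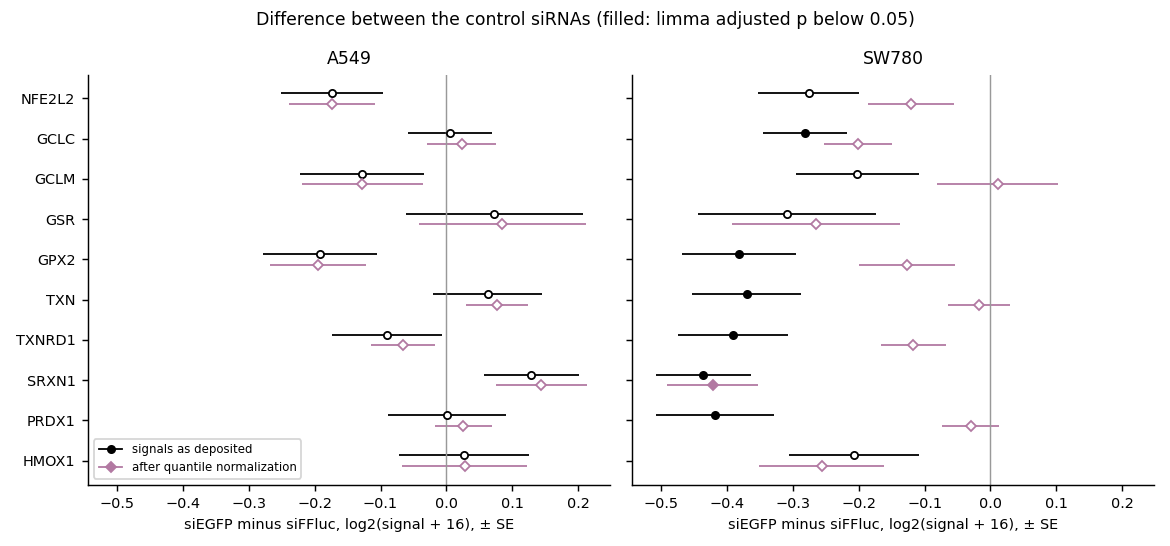
siEGFP minus siFFluc for each gene in A549 and SW780, as the difference of log2(signal + 16) ± SE, from the signals as deposited and after quantile normalization; filled symbols have a limma adjusted p below 0.05. In SW780 all 10 values from the deposited signals lie below 0 and 6 are filled, and after quantile normalization SRXN1 alone is filled.

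The lines also differed in the levels of these genes without KDM3A siRNA. Averaging the control siRNAs, 7 of the 10 were higher in SW780 and 3 lower, where 29.9% of all genes were higher and 38.5% lower. GPX2 was 10.6 times as high in SW780, at 17916 ± 2847 (SD, n = 4) against 1685 ± 169 (SD, n = 4), a log2 difference of 3.39 ± 0.06 (limma adjusted p = 5.09e-14). The difference was smaller on its second probe set, 239595_at (1.97 ± 0.21, limma adjusted p = 1.64e-06 among single probe sets), and 2.68 with the mean of its probe sets. HMOX1 was 4.79 times as high in A549, at 7832 ± 294 against 1634 ± 172 (-2.26 ± 0.07, limma adjusted p = 6.67e-12). SRXN1 was 2.34 times as high in A549, at 8630 ± 548.7 against 3682 ± 646.3 (-1.24 ± 0.05, limma adjusted p = 1.22e-10). TXNRD1 was likewise higher in A549 (-0.33 ± 0.06, limma adjusted p = 2.47e-04, and -0.17 with limma adjusted p = 0.0585 under median scaling). For these 4 genes the control arrays of the lines did not overlap.

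NFE2L2, the regulator, was higher in SW780 by 0.61 ± 0.05, as were GCLM (0.40 ± 0.07), GSR (0.37 ± 0.10), GCLC (0.36 ± 0.04) and PRDX1 (0.33 ± 0.06), with limma adjusted p-values of 3.1e-07 to 0.00371. The higher NFE2L2 signal of SW780 thus stood beside lower signals of HMOX1, SRXN1 and TXNRD1. TXN was higher in SW780 by 0.16 ± 0.06 (limma adjusted p = 0.0259) and at -0.07 after quantile normalization, so its direction depends on scaling. Its call ended without any 1 of A549 siEGFP replicate 1 (0.12, limma adjusted p = 0.11), A549 siFFluc replicate 2 (0.0790), SW780 siEGFP replicate 1 (0.0849) or SW780 siFFluc replicate 1 (0.0952). The control arrays of the lines overlapped for TXN and PRDX1. KEAP1, the brake on NRF2, was lower in SW780 (-0.93 ± 0.08, limma adjusted p = 1.09e-07). KEAP1 was at 1644 ± 35.6 under siKDM3A against 1706 ± 132 in A549 and at 793 ± 130 against 886 ± 42.1 in SW780, with no call in either line.

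The 10 genes had 20 probe sets of their own, of which 18 passed the filter, and 6 genes had more than 1 that did. The probe sets of GCLM disagreed. In A549 its main probe set 203925_at changed by 0.23 ± 0.08, while 234986_at, at 3181 and 2079, 2915 and 3137, and 2228 and 2102 under siEGFP, siFFluc and siKDM3A, changed by -0.36 ± 0.13. Neither was called among 27056 probe sets fitted one by one (limma adjusted p = 0.0952 and 0.0925), and the third, 236140_at, changed by 0.46 ± 0.24 (limma adjusted p = 0.293). The direction for GCLM under siKDM3A in A549 thus depends on the probe set. Those of GCLC differed as well. Between the lines its main probe set 202923_s_at was 0.36 ± 0.05 higher in SW780 and 202922_at 0.04 ± 0.05 (limma adjusted p = 0.597), while under siKDM3A in SW780 they changed by -0.16 ± 0.06 (limma adjusted p = 0.0951) and 0.08 ± 0.07 (limma adjusted p = 0.555). Both were called lower under siEGFP than under siFFluc in SW780 (-0.28 and -0.41, limma adjusted p = 0.0325 and 0.012). For GSR, the second probe set 205770_at read 2687 and 2734, 3148 and 3295, and 2468 and 2285 in SW780, with both siKDM3A arrays below all controls (-0.31 ± 0.07, limma adjusted p = 0.015). In A549 it read 2425 and 2534 under siKDM3A against 2197 to 2498 (0.12 ± 0.07), and its difference between lines was -0.43 ± 0.10 (limma adjusted p = 0.0475). Both probe sets of GSR were thus called lower in SW780. In SW780 the second probe set of TXN, 216609_at, read 1827 on 1 siFFluc array and between 288 and 705 on the other 5 arrays.

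**Figure D4:**
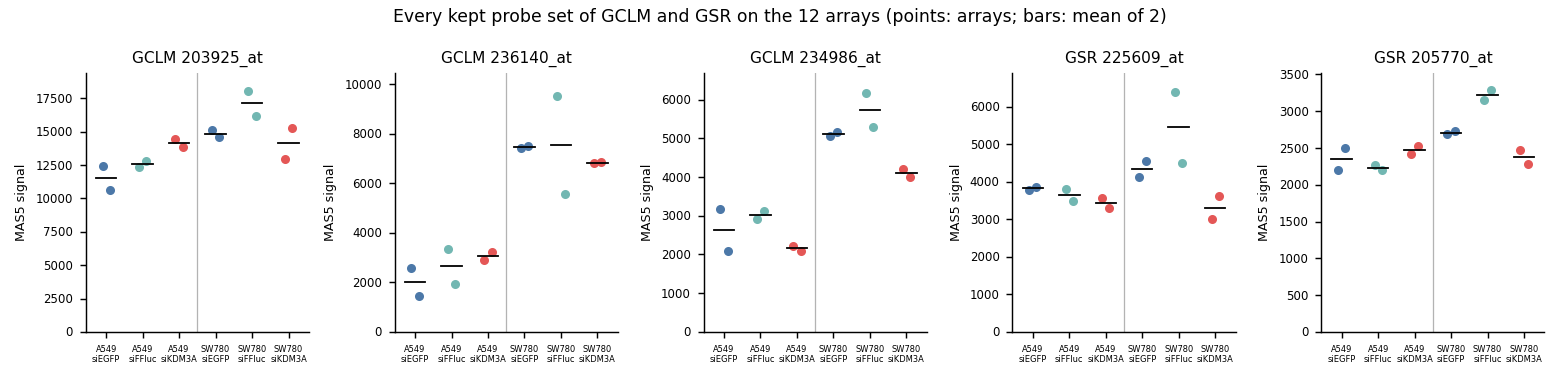
MAS5 signal (linear, from 0) of the 3 kept probe sets of GCLM and the 2 of GSR by line and siRNA, with a point for each array and a bar at the mean of 2. In A549 the siKDM3A points of GCLM 203925_at lie above all controls while those of 234986_at lie among the lowest, and in SW780 the siKDM3A points of both GSR probe sets lie below all controls.

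Other genes of the pathway were taken from 5 lists written from general knowledge, but with earlier results of these data known. Their counts are thus a description only. The counts of each list stand beside the shares of all genes, 5.33% higher and 6.37% lower in A549 and 5.73% and 6.18% in SW780. Differences from these shares were not tested. The list counts under median scaling have another background. There 2217 of 14054 genes were higher and 415 lower in A549, and 287 were higher and 1257 lower in SW780. Among regulators and partners of NRF2, 0 of 14 tested rose and 4 fell in A549 (median -0.16), and 2 rose and 4 fell in SW780 (median -0.08). BTRC, which encodes the ubiquitin ligase subunit beta-TrCP that can mark NRF2 for degradation, fell furthest. It read 424 and 438, 421 and 433, and 125 and 122 under siEGFP, siFFluc and siKDM3A in A549, and 322 and 337, 318 and 332, and 189 and 85.6 in SW780. Its change was -1.68 ± 0.21 in A549 (limma adjusted p = 3.12e-04) and -1.25 ± 0.21 in SW780 (limma adjusted p = 0.00249). The others named were NFE2L1 (-0.29), MAFF (-0.25) and NFE2L3 (-0.39) in A549, and DPP3 (-0.35), RBX1 (0.28), BACH1 (0.40) and NFE2L1 again (-0.28, limma adjusted p = 0.0253) in SW780. BACH1 represses HMOX1. Under median scaling the counts were 2 higher and 1 lower in A549 and 0 and 4 in SW780.

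The glutathione list, which holds transferases, glutaredoxins, peroxidases and the cystine importer, had 31 genes tested. In A549 2 rose and 0 fell (median 0.05), the glutaredoxins GLRX2 (0.28 ± 0.06) and GLRX5 (0.26 ± 0.06). In SW780 3 fell and 0 rose (median 0.06), the transferases GSTM4 (-0.63 ± 0.12) and GSTM2 (-0.34 ± 0.10) and the secreted peroxidase GPX3 (-0.38 ± 0.10). Against siEGFP alone GSTM2 (-0.14, limma adjusted p = 0.533) and GPX3 (-0.23, limma adjusted p = 0.267) were not called. Under median scaling 11 of the 30 genes tested were higher and 0 lower in A549. SLC7A11, which imports the cystine that limits glutathione synthesis, differed between the control siRNAs in both lines. It read 3136 and 3047 under siEGFP, 7854 and 7373 under siFFluc and 5341 and 5595 under siKDM3A in A549, and 2781 and 3216, 7335 and 6474, and 4374 and 4640 in SW780. In both lines the siKDM3A arrays lay between the control groups, above both siEGFP arrays and below both siFFluc arrays. A change against both controls thus averages a higher and a lower reading for this gene. The siEGFP minus siFFluc difference was -1.30 ± 0.09 in A549 (limma adjusted p = 2.47e-06) and -1.20 ± 0.09 in SW780 (limma adjusted p = 7.96e-06), and the change under siKDM3A against both controls was 0.17 ± 0.07 (limma adjusted p = 0.162) and -0.01 ± 0.07 (limma adjusted p = 0.948).

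Of 19 other thioredoxin and peroxiredoxin genes tested, 5 rose and 0 fell in A549 (median 0.13), and 3 rose and 2 fell in SW780 (median -0.02). Under median scaling 10 were higher and 0 lower in A549, and 0 higher and 3 lower in SW780. TXNIP, the inhibitor of thioredoxin, rose in A549 (0.37 ± 0.07) and SW780 (0.24 ± 0.07), and the sestrin gene SESN1 rose in both (0.45 ± 0.11 and 0.49 ± 0.11). NXN (0.28) and TXNL1 (0.22) rose in A549 and TXNDC9 (0.24) in SW780. Against siFFluc alone none of these rises was called. There TXNIP was at 0.21 in A549 (limma adjusted p = 0.0962) and 0.21 in SW780 (limma adjusted p = 0.0855). SESN1 was at 0.29 (limma adjusted p = 0.185) and 0.31 (limma adjusted p = 0.125). TXNIP also differed between the controls in A549 (-0.31, limma adjusted p = 0.0448). SESN3, another sestrin gene, read 1281 and 963, 1348 and 1221, and 1761 and 1851 in A549, and 161 and 220, 155 and 214, and 126 and 92.6 in SW780. It rose in A549 (0.59, limma adjusted p = 0.0415) and fell in SW780 by 0.70 ± 0.17, and its difference between lines was -1.29 (limma adjusted p = 0.0211). With the mean of its probe sets SESN3 was called in neither line, at 0.30 in A549 (limma adjusted p = 0.524) and 0.04 in SW780 (limma adjusted p = 0.950), so its SW780 direction depends on the probe set.

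Among 20 genes of NADPH supply and of quinone, haem and iron handling, 2 rose and 2 fell in A549 (median -0.01) and 0 rose and 6 fell in SW780 (median -0.18). Under median scaling the A549 counts were 6 higher and 1 lower. ABCC3, an export pump for conjugates, fell in A549 (-0.61 ± 0.11) and SW780 (-1.07 ± 0.11). EPHX1, an epoxide hydrolase, read 1696 and 1751, 2763 and 1960, and 961 and 812 in SW780 (-1.17 ± 0.13, limma adjusted p = 1.42e-04), and its difference between lines was -1.18 (limma adjusted p = 0.00718). PGD (-0.64) and TKT (-0.44) of the pentose phosphate pathway fell in SW780 too, as did ME1, a malic enzyme gene (-0.26, limma adjusted p = 0.00843), and PGD also differed between the controls there (-0.56). In A549 CBR1 (0.40) and NQO1 (0.25) rose and ME1 (-0.20) fell. Of 5 genes for superoxide dismutases, their chaperone and catalase, none was called in A549, and CAT fell in SW780 (-0.30). Against siEGFP alone PGD (-0.36, limma adjusted p = 0.0771), TKT (-0.29, limma adjusted p = 0.0994), ME1 (-0.12, limma adjusted p = 0.315) and CAT (-0.17, limma adjusted p = 0.315) were not called in SW780.

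SQSTM1, not picked by smallest p under siKDM3A in either line, was left aside here. The calls of the other named list genes under siKDM3A numbered 15 in A549 and 18 in SW780. Whichever 1 array was left out, 2 of those in A549 (BTRC and TXNIP) and 5 of those in SW780 (BTRC, DPP3, ABCC3, EPHX1 and PGD) stayed. Each of the other 13 and 13 ended without at least 1 of the siKDM3A arrays of the line, with limma adjusted p-values up to 0.295 for NQO1 in A549 and 0.369 for GSTM2 in SW780. With the mean of its probe sets PGD was not called (limma adjusted p = 0.793), nor was TXNIP in either line (limma adjusted p = 0.144 and 0.057). Against siEGFP alone 8 of the calls in A549 and 8 in SW780 ended, against siFFluc alone 7 and 4, with the mean of the probe sets 8 and 6, and with an untrended prior variance 11 and 9.

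**Figure D5:**
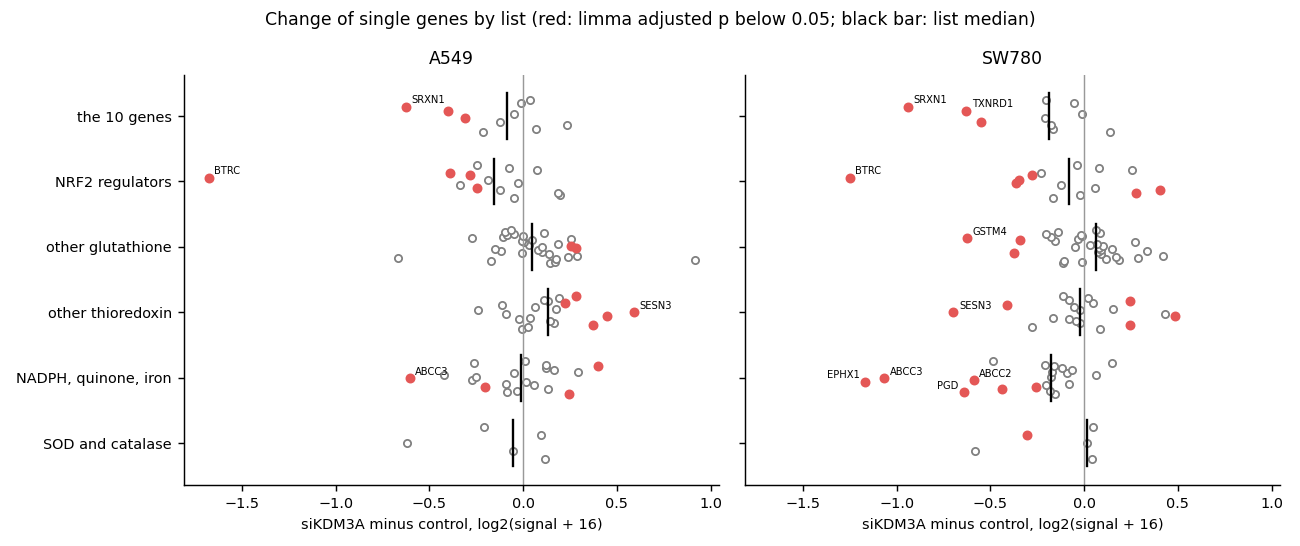
Change of single genes under siKDM3A by list in A549 and SW780, as the difference of log2(signal + 16); red points have a limma adjusted p below 0.05, open points do not, and black bars are list medians. BTRC lies furthest to the left in A549 and SW780, and in SW780 all 6 red points of the NADPH, quinone and iron list lie below 0.

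Among the 10, SRXN1, TXNRD1 and GSR varied most over the 12 arrays once the mean of each line was subtracted, with an SD of 0.40, 0.28 and 0.24 on the log2 scale. The genes of the array with the closest profile on that scale were TAGLN2, SCD and DDX6 for SRXN1, with a root mean squared difference of 0.10, 0.11 and 0.11. PSAP, SPP1 and OS9 were closest to TXNRD1 (0.08, 0.08 and 0.09), and ZMIZ1, ACADVL and RNF10 to GSR (0.06, 0.07 and 0.08). None of these 9 genes is on the lists of the pathway.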

How the data were processed

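The authors deposited intensity values on a linear scale, made with MAS5 per the submitters' processing notes, which give no version. The trimmed mean of every array, leaving out 2% at each end, was 500.1, so arrays had been scaled alike. The 62 control probe sets were removed. Genes were named with the platform annotation of 2016, updated through a RefSeq gene table. Probe sets were kept where mean log2(signal + 16) reached its 40th percentile (a signal of 29.6), which left 32768, and the probe set of highest mean per gene gave 14057 genes. The 6 group means were fitted to log2(signal + 16) in limma 3.58.1 (R 4.3.3, trended prior variance), with Benjamini-Hochberg adjustment over all genes tested and a threshold of 0.05. The fit was tried on simulated arrays with independent noise and changes planted in A549 siKDM3A alone. These hold no shift of whole arrays, so the trial says nothing on such shifts. Alternatives covered scaling, pseudocount, filter, probe set, prior, control, replicate block and each array left out, and fitting probe sets one by one was added after seeing the data. Figures were drawn with matplotlib 3.10.9. The members and lists were chosen with earlier results of these data known. Text names all 10 genes, KDM3A, KEAP1, SLC7A11 and NQO1, and up to 4 list genes of smallest p per knockdown comparison. It also names SQSTM1, the 3 closest profiles of the 3 most variable genes, and cell type markers.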

Additional observations from a re-analysis of the deposited data

Results flagged for a closer look

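The second probe set of GSR, 205770_at, responded differently to siKDM3A in the lines, by the limma test of the difference itself among 27056 probe sets. The difference, SW780 minus A549, was -0.43 (limma adjusted p = 0.0475), from a change of -0.31 in SW780 and 0.12 in A549. The main probe set of GSR gave -0.43 as well, with a larger SE and no call (limma adjusted p = 0.192).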

How the results depend on the processing

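SRXN1 in both lines and TXNRD1 in SW780 kept their calls under siKDM3A in all 24 alternatives, at -0.73 to -0.47, -1.16 to -0.72 and -0.82 to -0.43 on the log2 scale. Of the 10 genes, 3 were called in A549 under siKDM3A, 5 with the arrays of 1 line only, and 1 to 4 with 1 array left out. In SW780 3 were called, 5 under median scaling or with siFFluc as the only control, and 2 to 4 with 1 array left out. For the difference between lines, 0 were called, with 1 after quantile normalization, 6 under median scaling, 2 with siFFluc as the only control and 0 to 4 with 1 array left out. Between the controls in SW780, 6 were called, with 1 after quantile normalization, 2 under median scaling, 3 with the mean of the probe sets, 1 with the arrays of 1 line, 0 with an untrended prior and 1 to 7 with 1 array left out. The difference of that contrast between lines had 0 calls and 0 to 3 with 1 array left out. TXN, higher in SW780 controls, was at -0.073 after quantile normalization. The count of the 10 under siKDM3A fell to 2 in A549 with the mean of the probe sets, an untrended prior or siEGFP as the only control. In SW780 it fell to 2 with an untrended prior or siEGFP as the only control. Over all genes, siKDM3A gave 523 to 2632 calls in A549 (1645 as reported) and 749 to 2618 in SW780 (1675), and the control siRNAs 179 to 584 in A549 (410) and 167 to 1937 in SW780 (803). Median scaling turned 749 higher and 896 lower in A549 into 2217 and 415, and 806 and 869 in SW780 into 287 and 1257. For the difference between lines it turned 253 higher and 139 lower into 116 and 1825. The causes were not tested.

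Deviations of arrays with the same replicate number correlated at -0.03 to 0.01 between groups of a line over all genes tested. In SW780 mean signal was higher on replicate 1 of each group, at 843 against 810, 917 against 882 and 877 against 841. The A549 groups had no such common order. The labels do not say whether the numbers pair the arrays, and this was not tested. With the replicate block NFE2L2 was called lower in A549 under siKDM3A (-0.21, limma adjusted p = 0.0454) and between the controls in SW780 (limma adjusted p = 0.0407), and no other call of the 10 genes changed. With 2 arrays a group, their number limits the precision.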
